A study of Mus musculus with 35 samples.

Results

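The 7 genes described here are Msh3, Msh6, Mlh3, Pms1, Pms2, Exo1 and Fan1, DNA repair genes that act on the somatic lengthening of the huntingtin CAG repeat. They were taken by symbol from the 39109 entries of a striatal RNA-seq count table, and all 7 passed the count filter in each comparison. RNA came from whole striata of 35 mice aged 21.7 to 23.0 weeks, with 1 library per mouse. The mice differ at 2 loci. Htt Q111/+ mice carry 1 knock-in huntingtin allele with an expanded CAG repeat on a C57BL/6J background, and Htt +/+ mice carry none. Hdac2 KO mice (labelled Hdac2D/D) are homozygous for a floxed Hdac2 allele and carry the D9-Cre transgene, which the Ppp1r1b (DARPP-32) promoter drives in medium-spiny neurons (MSNs), so other striatal cells keep the gene. Hdac2 WT mice (labelled Hdac2+/+) keep intact Hdac2 and lack Cre, and 2 of them, both Htt +/+, carry 1 floxed allele. Since all Hdac2 KO mice and no Hdac2 WT mice carried Cre, the transgene and the deletion cannot be told apart, and the floxed line came from a mixed strain background before it was bred to C57BL/6J. Among mice with intact Hdac2, 8 were Htt +/+ (5 males, 3 females) and 7 were Htt Q111/+ (4 males, 3 females, 110 to 140 CAGs). Among Hdac2 KO mice, 9 were Htt +/+ (5 males, 4 females) and 11 were Htt Q111/+ (8 males, 3 females, 110 to 144 CAGs).

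Mismatch repair begins when a MutS heterodimer binds mispaired or looped-out bases. MutSα, which contains MSH6, recognizes single mismatches and small loops, and MutSβ, which contains MSH3, recognizes larger loops such as those formed by slipped CAG repeats. A MutL heterodimer is then recruited: PMS2, MLH3 and PMS1 are the alternative subunits of MutLα, MutLγ and MutLβ, and the first pair carry an endonuclease activity. EXO1 is the exonuclease that removes the nicked strand, and FAN1 is a nuclease of interstrand crosslink repair that restrains repeat expansion. In Huntington's disease mice, loss of MSH3 or MLH3 blocks somatic expansion, and MSNs are among the cells where the repeat lengthens most.

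The libraries held 50970712 to 77867348 counts, with a median of 57322618, and the members had from 7 counts (the lowest of Exo1) to 3265 counts (the highest of Mlh3) in a library. The targeted gene, Hdac2, had 97.6 to 107 and 95.5 to 111 CPM (the count relative to the library's total, with totals scaled by TMM factors) in the 2 Hdac2 WT groups and 89.4 to 99.2 and 89.8 to 101 CPM in the 2 Hdac2 KO groups. It fell by 8.15% in Htt Q111/+ striata (adjusted p = 0.00198, edgeR) and its difference in Htt +/+ striata was −5.97% (adjusted p = 0.0552). The loxP sites flank only some of its exons, and cells other than MSNs add to its counts. Hdac1, its paralog, had 5.33 to 7.76 CPM in Hdac2 WT and 8.37 to 11.03 CPM in Hdac2 KO libraries, and the groups did not overlap. The summed level of 4 markers of cortical projection neurons, which lie outside the striatum, ran from 3.38 to 411 CPM over the libraries, and none of the 4 was called in an Hdac2 or Htt comparison.

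Msh3 was the gene of the 7 that differed between Hdac2 genotypes, and it was lower in Hdac2 KO striata by about the same amount with and without the Htt Q111 allele. In Htt +/+ mice the level of Msh3 ran from 25.6 through a median of 27.9 to 29.1 CPM in Hdac2 WT striata and from 21.3 through 24.6 to 27.99 CPM in Hdac2 KO striata. In Htt Q111/+ mice it ran from 24.9 through 28.3 to 30.5 CPM in Hdac2 WT and from 21.5 through 24.5 to 29.0 CPM in Hdac2 KO striata. The ranges overlapped in both backgrounds, but 7 of 9 and 7 of 11 Hdac2 KO libraries lay below the lowest Hdac2 WT library of the same Htt genotype.

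Fitted with surrogate variables in edgeR's quasi-likelihood test, Msh3 fell by 10.7% in Htt +/+ striata (log2 fold change −0.16, SE 0.054, 95% interval −17.2% to −3.71%, Benjamini-Hochberg adjusted p = 0.031). In Htt Q111/+ striata Msh3 fell by 10.5% (log2 fold change −0.16, SE 0.049, 95% interval −16.4% to −4.13%, adjusted p = 0.021 in the same edgeR test). Msh3 was the only 1 of the 7 members called in either comparison. Of all genes tested, 17.8% were called in the first and 16.5% in the second, with 8.79% and 8.86% called as lower and 9.06% and 7.68% as higher, so 1 of 7 is a share near the background. Averaged over both Htt backgrounds, Msh3 fell by 10.1% (95% interval −15.2% to −4.80%, adjusted p = 0.00489), a comparison in which 25% of genes were called.

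Msh3 spans 143 kb at chr13:92211881-92355003 on the minus strand (GRCm38; ENSMUSG00000014850). The difference between the 2 Hdac2 effects on Msh3 was close to 0 on the log2 scale (interaction, 95% interval −0.13 to 0.13, nominal p = 0.995), and 0.00577% of genes were called for the interaction, none of them a member. The comparison of Htt Q111/+ Hdac2 KO with Htt +/+ Hdac2 WT striata uses the same libraries again, and there Msh3 fell by 11.4% (adjusted p = 0.0132, edgeR).

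**Figure D1:**
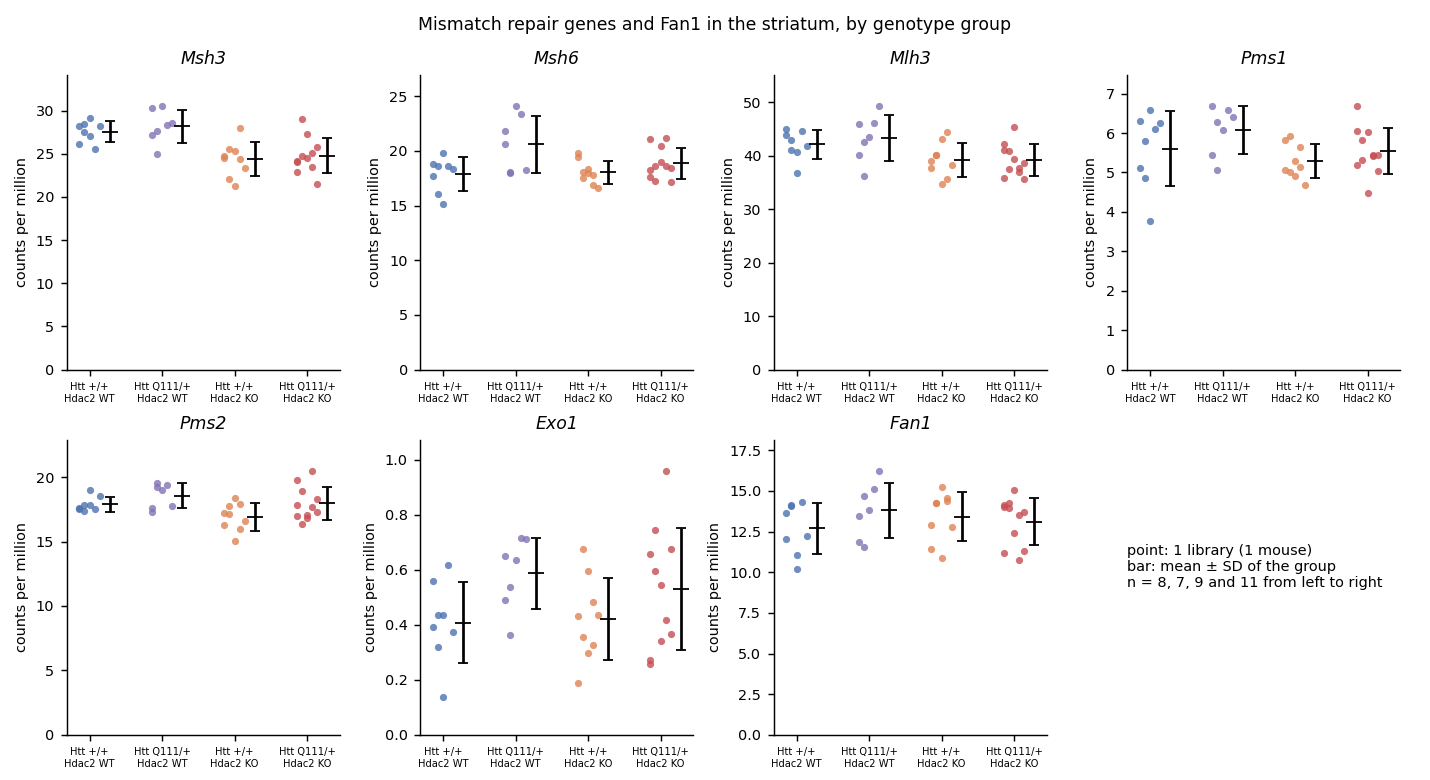
Level of each of the 7 genes in CPM (y axis, from 0) in the 4 genotype groups (x axis), with 1 point per library and the mean ± SD of each group as a bar. The Msh3 means of both Hdac2 KO groups lie below those of the Hdac2 WT groups, with overlapping points (group means 24.4 and 24.8 against 27.5 and 28.2 CPM), whereas the groups lie closer together or spread more widely for the other genes.

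The remaining MutS gene, Msh6, showed a different order of the groups. Its level ran from 15.2 through a median of 18.5 to 19.8 CPM in Htt +/+ Hdac2 WT, from 18.0 through 20.6 to 24.1 CPM in Htt Q111/+ Hdac2 WT, from 16.6 through 18.0 to 19.8 CPM in Htt +/+ Hdac2 KO and from 17.2 through 18.6 to 21.2 CPM in Htt Q111/+ Hdac2 KO striata. The highest values were thus in Htt Q111/+ mice with intact Hdac2, where 4 of 7 libraries lay above the highest Htt +/+ Hdac2 WT library.

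With intact Hdac2, Msh6 was 14.95% higher in Htt Q111/+ than in Htt +/+ striata (log2 0.20, SE 0.061, 95% interval 0.08 to 0.33, nominal p = 0.00262), but it did not pass the threshold after adjustment over all genes (adjusted p = 0.168, edgeR), and 0.403% of genes were called in this comparison. Without MSN Hdac2 the same difference was −0.01 (−0.11 to 0.09, adjusted p = 0.986). The interaction for Msh6 was −0.21 (−0.37 to −0.06, nominal p = 0.00912, adjusted p = 0.725), so a difference between the Htt effects in the 2 Hdac2 backgrounds is not shown. The Hdac2 differences of Msh6 had opposite signs, 0.10 (adjusted p = 0.315) in Htt +/+ and −0.10 (adjusted p = 0.235) in Htt Q111/+ striata, and neither was called. The gene lies at chr17:87975050-87990883 on the plus strand and overlaps the end of Fbxo11 by 25 bases. Fbxo11, read on the other strand, had log2 differences of −0.03 and 0.00 for the Htt genotype with and without intact Hdac2.

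Of the 3 MutL genes, Mlh3 (chr12:85234529-85270591, minus strand) lay lower in Hdac2 KO striata by less than Msh3. Its level ran from 36.7 through 42.4 to 45.1 CPM in Htt +/+ Hdac2 WT and from 34.7 through 38.9 to 44.5 CPM in Htt +/+ Hdac2 KO striata. In Htt Q111/+ mice it ran from 36.2 through 43.6 to 49.3 CPM with and from 35.6 through 38.7 to 45.4 CPM without MSN Hdac2. Both pairs of groups overlapped over most of their range.

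The fitted difference of Mlh3 was −0.05 in Htt +/+ (log2, 95% interval −0.13 to 0.02, adjusted p = 0.368) and −0.07 in Htt Q111/+ striata (−0.14 to −0.01, nominal p = 0.0277, adjusted p = 0.118). Mlh3 passed the threshold where Htt Q111/+ Hdac2 KO was compared with Htt +/+ Hdac2 WT, where it fell by 6.32% (adjusted p = 0.0452, edgeR). There 2 of the 7 members, Msh3 and Mlh3, were called as lower against 11% of all genes, and 21.2% of genes were called in either direction. Its call there was lost in 10 of 15 alternative fits, among them the fit without the deepest library (adjusted p = 0.0549). In Htt Q111/+ striata Mlh3 gained a call with series and sex in place of the surrogate variables (log2 −0.15, adjusted p = 0.0135) and with only the 2 groups compared (−0.12, adjusted p = 0.0173), 2 of 15 alternative fits, and averaged over both Htt backgrounds it gained one in 3 of 14. Mlh3 did not differ detectably with the Htt genotype, at −0.02 with (95% interval −0.09 to 0.05) and −0.04 (−0.10 to 0.01) without MSN Hdac2.

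Pms2 (chr5:143909964-143937309, plus strand), the MutL gene with the smallest spread, had 17.4 to 18.99 CPM in Htt +/+ Hdac2 WT, 17.3 to 19.5 in Htt Q111/+ Hdac2 WT, 15.02 to 18.3 in Htt +/+ Hdac2 KO and 16.3 to 20.4 CPM in Htt Q111/+ Hdac2 KO striata. The fitted Hdac2 differences of Pms2 were −0.04 (95% interval −0.15 to 0.06) in Htt +/+ and −0.01 (−0.10 to 0.09) in Htt Q111/+ striata, and the Htt differences were 0.01 (−0.09 to 0.11) and 0.05 (−0.03 to 0.12). None of these was called (adjusted p = 0.663 or higher). Gm17135, an antisense gene whose interval covers 14733 bases of Pms2, had at most 2 counts in any library against 778 to 1315 for Pms2, so reads of Pms2 were not counted on the opposite strand. Rsph10b lies on the same strand and overlaps Pms2 by 4275 bases, and reads in the overlap can enter both genes.

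Pms1 (chr1:53189187-53296967, minus strand) had 3.77 to 6.59 CPM in Htt +/+ Hdac2 WT, 5.07 to 6.68 in Htt Q111/+ Hdac2 WT, 4.68 to 5.93 in Htt +/+ Hdac2 KO and 4.49 to 6.68 CPM in Htt Q111/+ Hdac2 KO striata. It was called in no comparison, with log2 Hdac2 differences of −0.01 (95% interval −0.19 to 0.18) and −0.06 (−0.22 to 0.10). Its neighbour Ormdl1, a regulator of sphingolipid synthesis, starts 127 bases away in the opposite direction. A stretch at the start of Pms1 is shown because this neighbour was called with Hdac2 KO in the main fit and Pms1 was not. The letters GGGCGG, the GC box bound by Sp1 family factors, were searched on both strands of the window from 250 bases before to 50 bases after the start of Pms1 (RefSeq, GRCm38.p6). The 1 match, in capitals, is written 5′ to 3′ on the strand of Pms1.
Pms1 GC box at chr1:53297009-53297038, minus strand: acttcctgctgtGGGCGGgccttagaggag
The window of Ormdl1 covers the printed stretch and also held 1 match, so the match does not set Pms1 apart from its neighbour. The same letters were found 5 times in the window of Msh6, 2 times in that of Pms2 and 0 times in those of Mlh3 and Fan1. No window was found for Exo1, and the window and neighbours of Msh3 are not reported here. Of 32851 windows of the same length 35.7% held these letters. A match is a description of sequence. Ormdl1 rose by 17.5% in Htt +/+ (log2 0.23, SE 0.073, adjusted p = 0.0231) and by 14.0% in Htt Q111/+ Hdac2 KO striata (log2 0.19, SE 0.062, adjusted p = 0.0349, edgeR). The mean level of Ormdl1 went from 9.98 to 10.9 CPM in Htt +/+ and from 10.5 to 11.1 CPM in Htt Q111/+ striata, with overlapping ranges. Its call held in 8 of 15 and 7 of 15 alternative fits, with log2 differences from 0.06 to 0.27 and from 0.01 to 0.22. Ormdl1 also differed between the series of animal numbers described below (20.8% higher in series V among carriers, adjusted p = 0.00989, edgeR). Of the other neighbours, Acyp1 beside Mlh3 and Mphosph10 and Gm20457 beside Fan1 were not called for either locus. The neighbour of Pms2 at its 5′ end, Aimp2, a scaffold subunit of the tRNA synthetase complex, was not called, at −0.02 (adjusted p = 0.858) and −0.12 (adjusted p = 0.108).

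**Figure D2:**
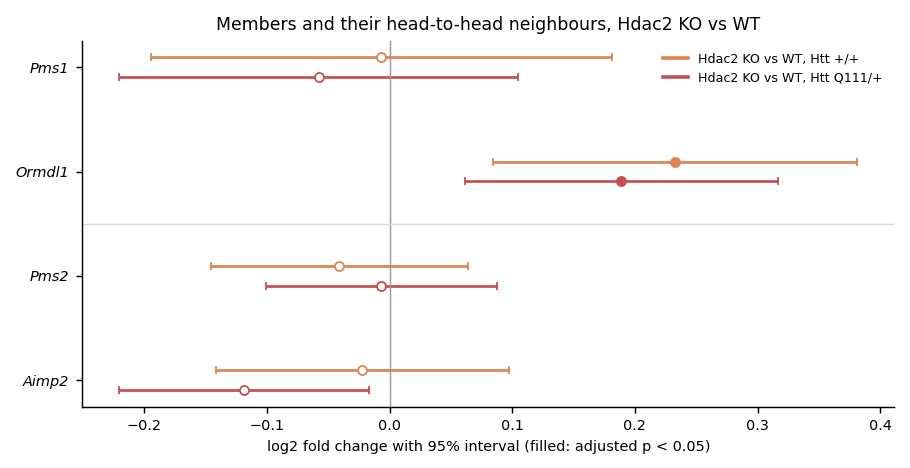
Log2 fold change of Hdac2 KO against WT with its 95% interval (x axis) for Pms1, Pms2 and the genes that start beside them in the opposite direction, Ormdl1 and Aimp2 (y axis), in Htt +/+ (orange) and Htt Q111/+ striata (red). The filled points, which passed an adjusted p of 0.05, are those of Ormdl1 on the positive side (0.23 and 0.19), while Pms1, Pms2 and Aimp2 have open points.

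Exo1 (chr1:175880778-175911396, plus strand) was at the edge of detection, with 7 to 56 counts per library among totals of 50970712 to 77867348. Its level ran from 0.137 through 0.413 to 0.616 CPM in Htt +/+ Hdac2 WT, from 0.362 through 0.634 to 0.716 in Htt Q111/+ Hdac2 WT, from 0.189 through 0.433 to 0.675 in Htt +/+ Hdac2 KO and from 0.259 through 0.545 to 0.958 CPM in Htt Q111/+ Hdac2 KO striata. The medians were higher in the Htt Q111/+ groups, and the ranges overlapped. The log2 difference for the Htt genotype was 0.24 (95% interval −0.29 to 0.77, adjusted p = 0.81) with intact Hdac2 and 0.18 (−0.25 to 0.61, adjusted p = 0.913) without. For Hdac2 it was −0.01 (−0.59 to 0.56) and −0.07 (−0.54 to 0.40). Changes of Exo1 within these wide intervals were not detectable at this depth.

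Fan1 (chr7:64346758-64374095, minus strand) had 10.2 to 14.3 CPM in Htt +/+ Hdac2 WT, 11.5 to 16.2 in Htt Q111/+ Hdac2 WT, 10.9 to 15.2 in Htt +/+ Hdac2 KO and 10.8 to 15.1 CPM in Htt Q111/+ Hdac2 KO striata. The group medians lay between 12.9 and 14.2 CPM. The log2 Hdac2 differences of Fan1 were 0.03 in both backgrounds (95% intervals −0.11 to 0.16 in Htt +/+ and −0.10 to 0.15 in Htt Q111/+), and the Htt differences were −0.02 in both (−0.15 to 0.11 and −0.13 to 0.08). All 4 adjusted p were 0.836 or higher. These values depended on the covariates. Without surrogate variables the Hdac2 differences were 0.07 and −0.08, and the Htt difference at intact Hdac2 was 0.12, none of them called. The Hdac2 difference in Htt Q111/+ striata was below 0 in 6 of 15 alternative fits. The Htt difference at intact Hdac2 was above 0 in 8 of 15.

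**Figure D3:**
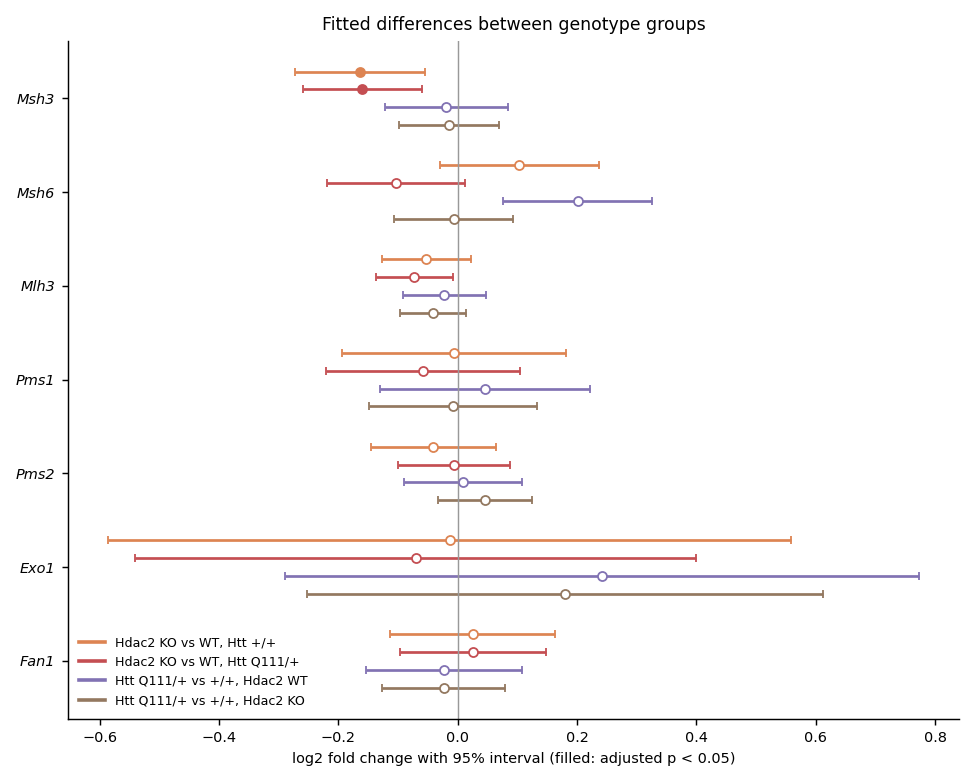
Log2 fold change with its 95% interval (x axis) of each of the 7 genes (y axis) in 4 comparisons: Hdac2 KO against WT in each Htt background, and Htt Q111/+ against +/+ in each Hdac2 background. The filled points are Msh3 in both Hdac2 comparisons (adjusted p = 0.031 and 0.021). Exo1 has the widest intervals, and the interval of Msh6 for the Htt genotype with intact Hdac2 lies above 0 without passing the adjusted threshold.

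No member was called for the Htt genotype, with or without MSN Hdac2, or averaged over both Hdac2 backgrounds. At an unadjusted p under 0.05, edgeR gave 1, 0 and 1 of the 7 in these comparisons, Msh6 each time, against 10.9%, 7.52% and 12.3% of all genes. DESeq2's Wald test also called 0 of the 7, whereas with series and sex in place of the surrogate variables Msh6 was called at intact Hdac2 (log2 0.22, adjusted p = 0.0354). Called genes made up 0.403%, 0.00584% and 1.27% of those tested. Over the 7 members the median log2 difference was 0.01 with intact Hdac2 and −0.01 without, beside 0.00 and 0.00 over all genes.

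Between genes, levels can be compared per length only. Divided by the merged exon length of GENCODE M21 (GRCm38), the median level over the 35 libraries was 5.40 CPM per kb for Mlh3, 4.22 for Msh6, 2.27 for Msh3, 2.26 for Fan1, 2.18 for Pms2, 0.723 for Pms1 and 0.0518 CPM per kb for Exo1. Mlh3 and Msh6 overlapped in range (4.59 to 6.53 and 3.49 to 5.55 CPM per kb). Msh3, Fan1 and Pms2 followed with ranges of 1.89 to 2.71, 1.68 to 2.67 and 1.85 to 2.52 CPM per kb, so their order is not separated by their spread. Pms1 and Exo1 lay below all others in all libraries. Per kb of the longest coding sequence the order became Mlh3, Msh3, Pms2, Msh6, Fan1, Pms1 and Exo1, because the untranslated and alternative exons differ in length. The counts cover whole gene intervals, introns included, so both scales are approximate.

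**Figure D4:**
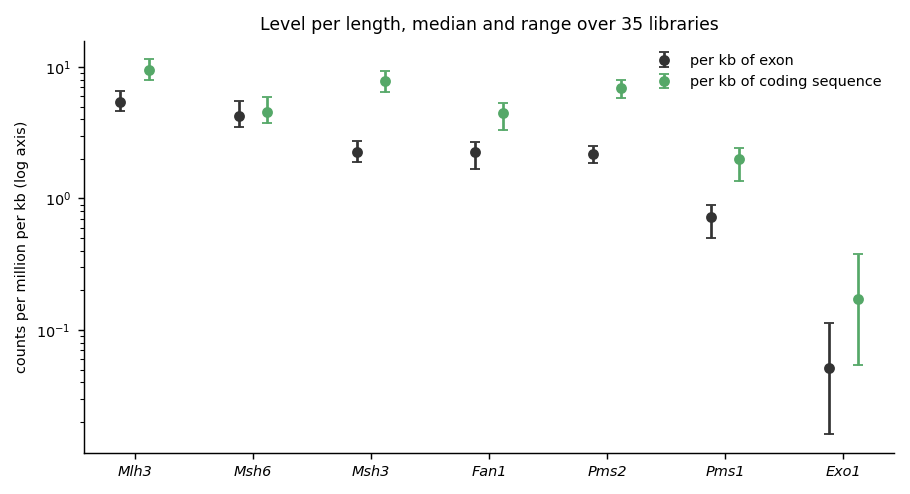
Median level over the 35 libraries (points) and range (bars) in CPM per kb on a log axis, for each gene (x axis), per kb of merged exons (black) and of coding sequence (green). Mlh3 is highest and Exo1 lowest on both scales (medians 5.40 and 0.0518 CPM per kb of exon), and the genes in between change order with the length used.

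The animal numbers of the mice begin with A, V or Z, and this series was used to split the libraries. The labels do not say what the series stands for. Among carriers it goes with repeat length (131 to 144 CAGs in V and 110 to 118 in A and Z). The split by series does not separate Hdac2 genotype from the day of RNA extraction described below. Within the 3 series and 2 Htt genotypes, the mean of Msh3 was lower in Hdac2 KO in 6 of 6 strata, by percentages from −15.7 to −8.57. In series V, which has the most mice, Msh3 averaged 27.5 CPM in 5 Hdac2 WT and 25.1 CPM in 3 Hdac2 KO Htt +/+ striata, and 29.1 CPM in 3 and 26.0 CPM in 5 of the Htt Q111/+ striata. For Mlh3 the mean was lower in 5 of 6 strata, for Pms1 and Pms2 also in 5 of 6, for Msh6 in 4 and for Exo1 and Fan1 in 3. Some strata hold a single library, and the values within strata were not tested.

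**Figure D5:**
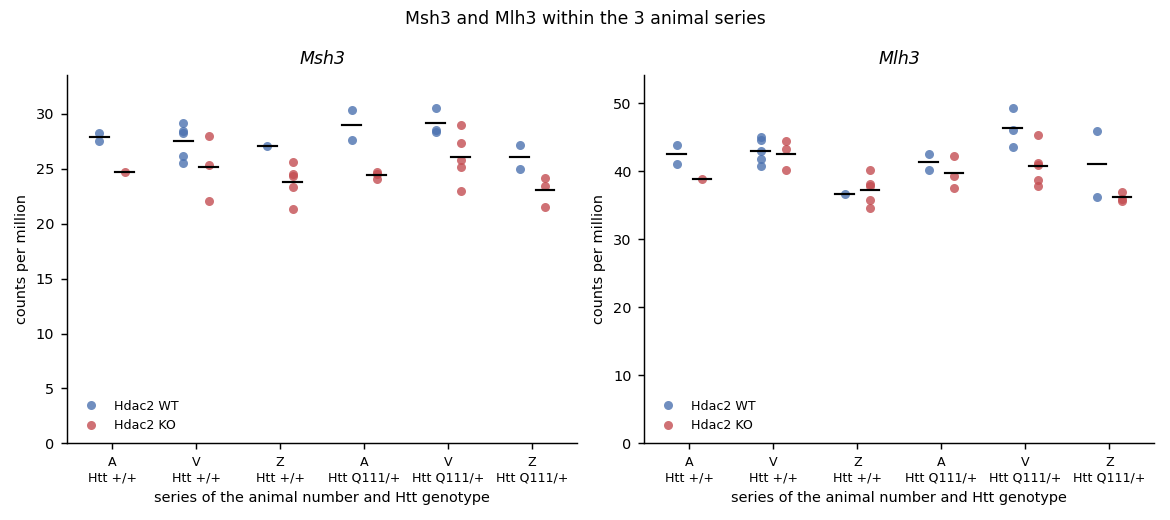
Level of Msh3 and Mlh3 in CPM (y axis, from 0) by series of the animal number and Htt genotype (x axis), with 1 point per library and a line at each mean. The Hdac2 KO mean (red) of Msh3 is below the Hdac2 WT mean (blue) in all 6 positions, and that of Mlh3 in 5 of 6.

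RNA was extracted on 6 days, and 18 of the 20 Hdac2 KO libraries were extracted on days with no Hdac2 WT library, so day and Hdac2 genotype cannot be told apart for them. On the days that held both, the 2 Hdac2 KO libraries had 24.1 and 24.4 CPM of Msh3 against 24.9 to 30.5 CPM in 10 Hdac2 WT libraries. The Hdac2 KO libraries of the other days had 21.3 to 29.0 CPM. With the extraction date in the fit in place of the surrogate variables, the log2 difference of Msh3 was −0.19 in Htt +/+ and −0.21 in Htt Q111/+ striata, and the call was lost in both (adjusted p = 0.204 and 0.241, edgeR). In that fit the number of genes called in all fell from 3056 to 822 and from 2841 to 331.

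The call for Msh3 was also lost when certain libraries were left out. Without the 2 Htt +/+ Hdac2 WT mice with 1 floxed allele, replicates 1 and 2 with 28.2 and 27.6 CPM, the Htt +/+ difference was −0.19 (adjusted p = 0.0904), and without the deepest library, replicate 1 of Htt Q111/+ Hdac2 KO with 24.1 CPM, the Htt Q111/+ difference was −0.15 (adjusted p = 0.057). These leave-outs were chosen after the data were seen. Scaling by library totals, without TMM factors, also ended the call in both, with the log2 difference at −0.13 in each. In each of the 2 Hdac2 comparisons Msh3 kept its call in 10 of 15 alternative fits and was lower in all 15, and averaged over both Htt backgrounds it kept it in 13 of 14.

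Between the series, 3 members differed at an unadjusted p under 0.05 and none after adjustment. Among carriers of the Htt Q111 allele, those of series V had 10.1% more Mlh3 (nominal p = 0.00829, adjusted p = 0.0814), 44.3% more Exo1 (nominal p = 0.0228, adjusted p = 0.15) and 12.02% more Fan1 (nominal p = 0.0448, adjusted p = 0.218) than those of series A and Z, in edgeR with sex as a term. Among Htt +/+ mice, which all have 7 CAGs by their labels, the same 3 genes were 9.77% (adjusted p = 0.164), 76.1% (adjusted p = 0.0691) and 12.3% higher (adjusted p = 0.29) in series V. The share of all genes called was 7.36% among carriers and 2.35% among non-carriers, and 21.5% and 16.9% had an unadjusted p under 0.05. The difference between the Htt genotypes in this series effect was not called for any member (adjusted p = 0.853 or higher, against 0.121% of genes called).

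Partners of these proteins were read from lists of genes. Of 16 mismatch repair co-factors (the PCNA clamp, its RFC loader, RPA, DNA polymerase delta, DNA ligase I, Hmgb1 and Setd2), 1 rose and none fell with Hdac2 KO in Htt +/+ striata, where 17.8% of all genes were called. Pold3, a subunit of DNA polymerase delta, rose by 10.9% (adjusted p = 0.0468, edgeR), a call kept in 6 of 15 alternative fits. In Htt Q111/+ striata 2 of the 16 fell and none rose, where 8.86% of all genes were called as lower and 7.68% as higher, so both counts are near the background: Rfc5, a subunit of the clamp loader, fell by 13.6% (adjusted p = 0.0334), and Setd2, the histone methyltransferase whose H3K36 mark recruits MutSα, fell by 5.84% (adjusted p = 0.0288). These calls were kept in 6 and 10 of 15 alternative fits, and in Htt +/+ striata Rfc5 had a difference of −13.8% (adjusted p = 0.0559). Setd2 was not called in Htt +/+ striata in the main fit but was in 5 of 15 alternatives. Averaged over both Htt backgrounds it was called in 12 of 14. The mean of Setd2 went from 106.6 to 93.5 CPM in Htt +/+ and from 104.8 to 94.6 CPM in Htt Q111/+ striata. Rfc5 was also lower with the Htt Q111 allele averaged over both Hdac2 backgrounds, where it fell by 12.3% (adjusted p = 0.0398). The median log2 difference of the list was −0.03 and 0.01, beside 0.00 and 0.00 for all genes.

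Fancd2, which encodes the monoubiquitinated protein that recruits FAN1 to damaged DNA, was lower in Hdac2 KO striata. Its level ran from 3.36 through 4.52 to 6.23 CPM in Htt +/+ Hdac2 WT, from 3.56 through 4.99 to 7.69 in Htt Q111/+ Hdac2 WT, from 1.86 through 3.01 to 5.33 in Htt +/+ Hdac2 KO and from 2.03 through 2.82 to 4.36 CPM in Htt Q111/+ Hdac2 KO striata. Fancd2 fell by 35.7% in Htt +/+ (log2 −0.64, SE 0.2, adjusted p = 0.0253) and by 46.4% in Htt Q111/+ Hdac2 KO striata (log2 −0.90, SE 0.18, adjusted p = 0.000443, edgeR). The groups overlapped in each pair, and the call held in 12 of 15 and 14 of 15 alternative fits. Of the 12 genes of the Fanconi anaemia list, Fancd2 was the only 1 that fell in either comparison, against 8.79% and 8.86% of all genes called as lower. Fancg, a subunit of the core complex that ubiquitinates FANCD2, and Slx4, a nuclease scaffold, rose by 15.7% each in Htt +/+ striata (adjusted p = 0.00901 and 0.0274, kept in 13 and 7 of 15 alternative fits), where 9.06% of all genes were called as higher, and the direction of Slx4 was not the same in all alternatives (log2 −0.07 to 0.25). In Htt Q111/+ striata neither Fancg nor Slx4 was called with Hdac2 KO, in the main fit or in any of 15 alternative fits. None of the 12 was called for the Htt genotype in either Hdac2 background, where 0.403% and 0.00584% of all genes were. Of the meiotic MutS genes, Msh4 had at most 15 counts per library and was not tested, and Msh5 was not called.

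Because striatum is a mixture, fewer cells of a type and less RNA per cell cannot be told apart. The summed level of 9 MSN markers was 7885 to 9057 CPM in Htt +/+ Hdac2 WT, 5716 to 7800 in Htt Q111/+ Hdac2 WT, 7452 to 8786 in Htt +/+ Hdac2 KO and 6433 to 8160 CPM in Htt Q111/+ Hdac2 KO striata. Of the 9, 2 fell and 2 rose with Hdac2 KO in Htt +/+ and 2 rose in Htt Q111/+ striata, against 17.8% and 16.5% of all genes called, and 5 fell with the Htt Q111 allele at intact Hdac2, against 0.403%. All 9 were detected, and among the 7 markers of dividing cells, summing to 13.1 to 37.0 CPM, none was called in these 3 comparisons. From Htt +/+ Hdac2 WT to Htt +/+ Hdac2 KO striata, the median summed level went from 527 to 579 CPM for 6 microglia markers, from 144 to 166 CPM for 5 endothelial markers, from 168 to 190 CPM for 3 markers of oligodendrocyte precursors and from 1708.1 to 1708.3 CPM for 6 astrocyte markers. In Htt Q111/+ striata the microglia, endothelial and precursor sums went from 505 to 536, from 145 to 151 and from 176 to 182 CPM. The fitted values did not show these rises, but they are another measure. They are medians over single markers, with surrogate variables in the fit, and cannot be set directly against the sums. The median log2 Hdac2 differences of the same lists were −0.01, −0.15 and −0.01 in Htt +/+ striata. In Htt Q111/+ striata they were −0.01, −0.06 and −0.05. No microglia, endothelial or oligodendrocyte precursor marker was called in either Hdac2 comparison. Of the 6 astrocyte markers 1 was called in each Hdac2 comparison, against 8.79% and 8.86% of all genes called as lower. This was Slc1a2, a glutamate transporter, which fell by 0.19 and 0.18 on the log2 scale (adjusted p = 0.0294 and 0.024, edgeR). The median log2 difference of the astrocyte list was −0.08 in Htt +/+ and 0.01 in Htt Q111/+ striata. Of 2 choroid plexus markers tested in Htt +/+ striata 1 was called, against 8.79% of all genes called as lower. Ttr, the marker called, fell by 3.12 on the log2 scale (adjusted p = 0.0359, edgeR). In Htt Q111/+ striata 3 were tested and none was called, with a median log2 difference of 0.13. The sum of 4 choroid plexus markers varied widely within groups. Its median was 21.6 and its highest value 182 CPM in Htt +/+ Hdac2 WT striata, against 4.79 and 18.8 CPM in Htt +/+ Hdac2 KO striata. The part of cell composition in the difference of Msh3 was not tested.

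Over the 35 libraries, the genes whose log2 level followed Msh3 most closely were Ddx42 (Pearson r 0.82, Spearman rho 0.78), Ddb1 (0.81 and 0.85) and BB031773 (0.81 and 0.81), among 13665 genes compared. For Mlh3 they were Tmx4 (r 0.90, rho 0.91), Rab11fip2 and Cdh8. For Msh6 the closest was Kif2a (r 0.80), for Fan1 Atad5 (r 0.75), for Pms1 4930458D05Rik (r 0.75), for Exo1 Crls1 (r 0.73, among 13666 genes) and for Pms2 Vdac2 (r 0.71). Among the members themselves, Mlh3 followed Fan1 (r 0.65, rho 0.60) and Msh3 (r 0.62, rho 0.62), and with the group means removed r was 0.75 and 0.46. These values share libraries, depth and sample composition, and they are given as a description.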

How the data were processed

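Striatal RNA of 35 mice was sequenced with 1 library per mouse. The deposited values are raw counts of reads per gene. The authors aligned read pairs with GSNAP to GRCm38 and counted unique alignments with bedtools over Ensembl gene intervals, introns included. Mates were counted separately: 42711 gene and library pairs had a count of 2 against 24676 with 1 and 10963 with 3, so counting error is larger than the counts imply. The 92 spike-in entries, 6152 genes of up to 250 nt and 2 mitochondrial rRNA genes were left out of 39109 entries. A gene entered a comparison where it had at least 6 counts in all libraries of a group compared.

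For each comparison, the counts of all 35 libraries were fitted in edgeR 4.0.16 (R 4.3.3) with TMM scaling, group and 9 surrogate variables, estimated for that comparison with sva 3.50.0. The study's methods also use surrogate variables of all libraries and edgeR's quasi-likelihood test, in older versions. The interaction and the averages came from 1 joint fit. The quasi-likelihood test was used with Benjamini-Hochberg adjustment over all genes tested and a threshold of 0.05. The comparison of animal-number series used sex as its covariate. On simulated counts for the Htt +/+ Hdac2 comparison (17126 genes), 61.8% of genes changed by 0.25 on the log2 scale were called, 90.9% of those changed by 0.5 and 100% of those changed by 1, with 5 wrong calls; that fit had 1 surrogate variable, so these rates do not carry over to a fit with 9.

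All 7 members were named in each comparison. Other genes were named if they are list genes past the threshold, the targeted gene or its paralog, or among the 3 closest by correlation. Neighbours within 5 kb of members other than Msh3 were named if they passed the count filter. Msh4, Msh5, Gm17135 and the markers Slc1a2 and Ttr fall outside these rules and were chosen after their values were seen. The members and lists were chosen with earlier results of these data known. Alternatives were other covariates (none, sex, extraction date, series and sex, replicate block), only the 2 groups compared, males only, library totals, DESeq2 size factors, DESeq2 1.42.0, other filters, short genes kept, and fits without 2 mice or the deepest library. Gene models are GENCODE M21, and promoter sequences are RefSeq (GRCm38.p6). Certain items are not reported here.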

Additional observations from a re-analysis of the deposited data

How the results depend on the processing

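The number of the 7 members called depended on the covariates. For Hdac2 KO in Htt +/+ striata it was 1 and became 0 with extraction date, with males only, with library totals, with no count filter and without the 2 mice with 1 floxed allele. For Hdac2 KO in Htt Q111/+ striata it was 1 and became 0 with extraction date, with library totals and without the deepest library, 2 with series and sex, and 3 with only the 2 groups compared. With males only it stayed at 1, but the gene was Msh6 (log2 −0.26, adjusted p = 0.0155) and not Msh3 (−0.22, adjusted p = 0.0606). For Htt Q111 at intact Hdac2 it was 0 and became 1 with series and sex (Msh6, log2 0.22, adjusted p = 0.0354). For the comparison across both loci (mice carrying both alleles against mice with neither) it was 2 and became 1 in 5 alternatives (no surrogate variables, sex, series and sex, no count filter, without the deepest library) and 0 in 5 (date, replicate block, males only, library totals, without the 2 mice). Averaged over Htt it was 1 and became 2 with no surrogate variables, sex, series and sex or males only, and 0 with date. The counts for the remaining comparisons did not change.

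The replicate block also gave 0 members for Hdac2 KO in Htt Q111/+ striata (Msh3 −0.16, adjusted p = 0.0609). Whether replicate numbers pair the mice was not formally tested. Between groups, the deviations of same-numbered libraries correlated with a median r of 0.0418 over 45 pairs. For libraries of other numbers the median r was −0.00981 over 410 pairs. An r over 0.1 was seen in 15 of the 45 and 85 of the 410 pairs. Of the 35 libraries, 8 correlated best with their own number.

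Of 853 member values under the alternatives, 700 kept direction and call, 118 changed sign without being called, 26 lost and 8 gained a call, and 1 reversed: Msh6 averaged over Htt, 0.01 in all mice, was −0.15 in males (adjusted p = 0.0287). Over all genes the calls ran from 822 to 5094 around 3056 in Htt +/+, from 331 to 3205 around 2841 in Htt Q111/+, from 0 to 858 around 69 for Htt Q111 at intact Hdac2, from 0 to 45 around 1 without it, from 798 to 5619 around 3627 for the comparison across both loci, from 0 to 5 around 1 for the interaction, from 802 to 5568 around 4341 averaged over Htt, and from 31 to 641 around 220 averaged over Hdac2. Between series they ran from 338 to 1443 around 1276 in carriers, from 28 to 449 around 407 in non-carriers, and from 3 to 18 around 21 for the difference. With library totals the share of called genes that were lower went from 49.2% to 31.2% in Htt +/+, from 53.6% to 33.3% in Htt Q111/+, from 51.8% to 33.8% across both loci and from 48.5% to 32.1% averaged over Htt. Per coding length, Msh3 moved from rank 3 to 2, Msh6 from 2 to 4, Pms2 from 5 to 3 and Fan1 from 4 to 5. The causes were not tested. Counts were lowest for Exo1, with 7 to 56 per library, and next lowest for Pms1, with 193 to 517, and their fitted intervals were the widest.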
